A study of Mus musculus with 3 samples.

Results

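Histones are the proteins that package DNA. The histone genes of the array were chosen by gene symbol alone, current or older, and 61 of its 45101 probe sets matched. They name 69 genes, of which 54 are replication-dependent histones, 9 are replacement variants, 4 are germ cell histones and 2 are pseudogenes. The centromeric variant Cenpa was left out, as was 1 probe set that also lists a gene of another kind.

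The data are signals from 3 Affymetrix arrays of mouse LSK cells, the marker-defined bone marrow fraction that holds blood stem cells and multipotent progenitors. One array was hybridised with RNA from WT cells, the second with RNA from cells lacking p53 (p53 KO) and the third with RNA from cells lacking both p53 and Mef, the ETS factor encoded by Elf4 (P53 KO/MEF KO, DKO). The loss of p53 is thus shared by the p53 KO and DKO arrays. The design text gives the genotypes as p53 -/- and p53 -/- Mef -/-. Strain, age, sex and the number of animals behind an array are not given in the sources used here. With 1 array per genotype no difference has an error or a test, and every comparison below is between a pair of arrays. Its title names the quiescence of blood stem cells under p53 as the subject.

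Replication-dependent histone genes lie in clusters, have no introns and are transcribed in bulk during S phase. Their main mRNAs end in a stem-loop instead of a poly(A) tail, and the protein Slbp binds that stem-loop. Variant histones are made throughout the cell cycle from polyadenylated mRNAs and replace the standard histones at particular places in chromatin. The H2ax gene makes both kinds of mRNA. One-cycle Affymetrix labelling, the kit the labels name, primes from oligo(dT), so the signals of the replication-dependent genes come from whatever polyadenylated or internally primed copies the sample held. How large a part of their mRNA this is was not measured here.

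Promoter windows are shown for 5 members, from both classes, that the results below turn on. They come from RefSeq (GRCm38.p6) and run from 250 bases before to 50 bases after the transcript start. Capitals mark CCAAT, the octamer ATTTGCAT and TATAAA, each on either strand. None of the marked motifs overlap.
H1f2, chr13:23738557-23738856, plus strand: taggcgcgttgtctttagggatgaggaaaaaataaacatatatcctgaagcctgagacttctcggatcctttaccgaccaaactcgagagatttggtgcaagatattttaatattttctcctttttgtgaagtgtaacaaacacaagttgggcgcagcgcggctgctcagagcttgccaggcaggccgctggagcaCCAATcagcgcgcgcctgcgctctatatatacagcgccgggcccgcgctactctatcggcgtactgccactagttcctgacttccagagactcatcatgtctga
H2bc18, chr3:96269450-96269749, plus strand: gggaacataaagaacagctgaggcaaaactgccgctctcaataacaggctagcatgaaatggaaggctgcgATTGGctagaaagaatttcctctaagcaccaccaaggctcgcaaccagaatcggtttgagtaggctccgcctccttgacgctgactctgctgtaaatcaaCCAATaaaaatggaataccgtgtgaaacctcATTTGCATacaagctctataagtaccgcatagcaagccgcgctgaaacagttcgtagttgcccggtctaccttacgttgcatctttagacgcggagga
H3c4, chr13:23575513-23575812, plus strand: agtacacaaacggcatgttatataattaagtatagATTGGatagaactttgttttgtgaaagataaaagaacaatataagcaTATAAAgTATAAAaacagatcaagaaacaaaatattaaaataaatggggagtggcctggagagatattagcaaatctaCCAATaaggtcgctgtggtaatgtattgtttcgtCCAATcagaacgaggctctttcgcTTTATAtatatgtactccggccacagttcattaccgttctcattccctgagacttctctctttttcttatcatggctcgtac
H3f3b, chr11:116024455-116024754, minus strand: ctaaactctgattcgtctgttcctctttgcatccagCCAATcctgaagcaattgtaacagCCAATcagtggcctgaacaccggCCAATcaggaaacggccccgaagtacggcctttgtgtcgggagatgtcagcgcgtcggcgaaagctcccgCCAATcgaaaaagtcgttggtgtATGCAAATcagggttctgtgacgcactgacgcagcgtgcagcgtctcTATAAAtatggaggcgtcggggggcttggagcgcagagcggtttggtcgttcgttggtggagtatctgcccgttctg
Macroh2a1, chr13:56135501-56135800, minus strand: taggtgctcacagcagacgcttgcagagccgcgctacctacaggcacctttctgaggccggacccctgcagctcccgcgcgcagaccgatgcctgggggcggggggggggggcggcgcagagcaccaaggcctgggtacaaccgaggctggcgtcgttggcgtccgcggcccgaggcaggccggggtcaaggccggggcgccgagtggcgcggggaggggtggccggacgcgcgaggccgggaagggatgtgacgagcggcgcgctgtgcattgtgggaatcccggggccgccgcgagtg

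H1f2 encodes a linker histone, H2bc18 a core H2B and H3c4 a core H3. H3f3b encodes the variant H3.3, which is laid down outside replication, and Macroh2a1 encodes macroH2A1, an H2A with a large extra domain. CCAAT was found in 41 of 50 windows of replication-dependent genes (82.0%), in 6 of 8 windows of variants and in 37.4% of all 32851 windows. Every one of the 13 H2A, 13 H2B and 10 H3 windows held it, against 3 of 12 H4 windows. The octamer, known from H2B promoters, was in 5 of 13 H2A and 4 of 13 H2B windows and in none of the 10 H3 or 12 H4 windows. By class it was in 9 of 50 replication-dependent and 1 of 8 variant windows, against 1.74% of all windows. TATAAA was in 25 of 50 replication-dependent windows, 1 of 8 variant windows and 13.6% of all windows. These windows are not all separate. Those of paired H2A and H2B genes, such as H2ac8 and H2bc8, overlap on opposite strands, so 1 site can be counted in both families. The 13 H2B windows come from 12 genes. H3f3b, with 4 CCAAT, 1 octamer and 1 TATAAA, was the variant whose window held all 3 motifs, and Macroh2a1 held none of them. A match describes the letters of a window and does not show that a factor binds there.

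Signals are intensities on a linear scale, and values under the median of all signals (110.4) were set to that floor before log2 was taken. A gene was represented by its brightest probe set, and it was called measured when that probe set reached the floor on at least 1 array. Near-identical histone genes share probe sets, and such a probe set is counted once. The 54 replication-dependent genes were represented by 14 probe sets, of which 12 were measured, 10 of them on all 3 arrays. Of those 12, 6 name 1 gene and 6 name several. H1f4 and H2ac18 stayed under the floor on every array. All 8 representative probe sets of the variants were over the floor on every array.

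Replication-dependent histones, each read by its brightest probe set, were higher on the p53 KO array than on the WT array. All 12 measured representatives were higher, with log2 differences from 0.10 to 1.34 and a median of 0.54, where the median of all 12597 measured genes was 0.00 and 46.2% of them were above 0. Among the 12, H2bc18 was under the floor on WT and over it on p53 KO, so it could only count as higher. At least 2-fold higher were 3 of 12, H1f2, H3c4 and H2bu2, beside 6.51% of all genes. None was at least 2-fold lower, beside 3.19% of all genes. The DKO array did not show the same shift. Against WT, 5 of 12 were higher and 7 lower, with a median of -0.17, where all genes had 0.07. H2bc18 was past 2-fold upward, beside 5.22% of all genes, and the H3 probe set of 12 genes was past 2-fold downward, beside 3.10%. Against p53 KO, 10 of 12 were lower on DKO, with a median of -0.74, where all genes had 0.11, and 4 were at least 2-fold lower (H1f2, H2bu2 and the shared H2A and H3 probe sets), beside 5.93% of all genes. None was at least 2-fold higher, beside 4.10%. Each array enters 2 of these comparisons, so the comparisons are not independent. The p53 KO median stayed between 0.45 and 0.56 under every alternative of scaling, floor and probe set tried, although 1 member was below 0 under 6 of them. The medians of DKO did not hold when only probe sets with 1 gene symbol were read (0.30 against WT, -0.36 against p53 KO) or only those whose ID ends in _at with no other suffix (0.36 and 0.012).

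**Figure D1:**
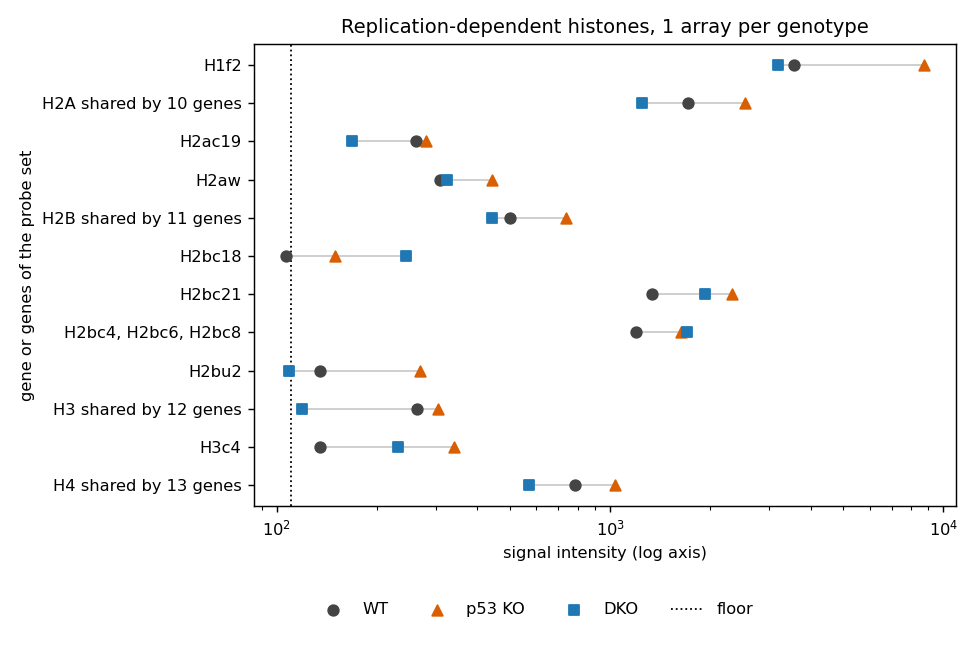
Signal intensity (log axis) of the 12 measured replication-dependent histone probe sets on 1 array per genotype. The grey line joins the lowest and highest array and the dotted line is the floor of 110.4. The p53 KO array is the highest for 10 of 12 and the DKO array for 2.

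The linker histone H1f2, which closes the DNA around the nucleosome, had signals of 3553 in WT, 8746 in p53 KO and 3189.5 in DKO cells. The p53 KO array stood alone as high, and the WT and DKO arrays were near each other. On the log2 scale p53 KO differed from WT by 1.30, while DKO differed from WT by -0.16 and from p53 KO by -1.46. The next brightest H1f2 probe set gave 3141, 6672 and 4674, again highest on p53 KO with a difference of 1.09 from WT, but with DKO 0.57 above WT. The third was under the floor on all 3 arrays. H1f4, another linker histone gene, had its only probe set at 5.74, 6.44 and 64.2, all under the floor.

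Among H2A genes, the probe set that names 10 genes of the large histone cluster had signals of 1712, 2539 and 1243 on WT, p53 KO and DKO. It was 0.57 higher on p53 KO than on WT, and the DKO array was the lowest, at -0.46 against WT and -1.03 against p53 KO. The H2aw probe set had signals of 309, 443 and 324, with p53 KO the highest by 0.52 over WT and DKO close to WT. Its other probe set gave 147, 166 and 189, with DKO the highest, at 0.36 over WT. H2ac19 had signals of 261, 280.4 and 168, a difference of 0.10 between p53 KO and WT, the smallest among the 12. The other probe set of H2ac19 alone gave 92.0, 218 and 126, at least 0.98 higher on p53 KO than on WT, where it was under the floor. The DKO array was thus below p53 KO for all 3 measured H2A representatives.

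H2B genes had 5 measured representatives. The probe set that names 11 genes had signals of 501, 736 and 441 on WT, p53 KO and DKO, the order seen for H2A. H2bu2, an H2B outside the large cluster whose probe set also names a pseudogene, had 134, 269 and 109. It was 2.003-fold higher on p53 KO than on WT, at the edge of the 2-fold limit. DKO, under the floor, was lower than p53 KO by a bound of -1.29. In the remaining 3, DKO was above WT. H2bc21 had signals of 1333, 2323 and 1927. Its other probe set gave 162, 194 and 186. The probe set of H2bc4, H2bc6 and H2bc8 had 1195, 1627 and 1701, so that both knockout arrays were near each other and above WT, by 0.45 and 0.51. The second measured probe set of these genes gave 95.6, 148 and 104, over the floor on p53 KO alone. With the mean over all their probe sets the DKO difference from WT was 0.08. H2bc18 had signals of 107, 149 and 243, under the floor on WT and highest on DKO, where it was at least 1.14 above WT. It was the only replication-dependent representative at least 2-fold higher on DKO than on WT.

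The core histones H3 and H4 form the tetramer at the centre of the nucleosome. The H3 probe set that names 12 genes had signals of 264, 304 and 119 on WT, p53 KO and DKO. DKO was the low array, at -1.15 against WT and -1.36 against p53 KO. H3c4 by its own probe set had 135, 340.2 and 232, which is 1.34 higher on p53 KO and 0.78 higher on DKO than on WT. With the mean over all probe sets that name H3c4, the p53 KO difference from WT was 0.47, under 2-fold, and the DKO difference from WT was -0.07. H3c7, which the shared probe set represents, had by its own dimmer probe set 170, 216 and 247, highest on DKO, so the H3 probe sets did not agree on the order of WT and DKO. All 13 H4 genes share their probe sets. The brightest had signals of 783, 1035 and 569.7, with p53 KO 0.40 above WT and DKO lower than WT, at -0.46. The second H4 probe set over the floor ran the other way, at 439, 361 and 507. It was the only measured replication-dependent probe set that was lower on p53 KO than on WT.

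Where the DKO array lay is given by the number of genes a probe set names, with no test of the difference. For the 4 representatives that name 10 or more genes, DKO was below WT in 4 of 4, with a median of -0.46, and below p53 KO in 4 of 4, with a median of -0.95. For the 6 representatives that name 1 gene, DKO was above WT in 4 of 6, with a median of 0.30, and below p53 KO in 5 of 6, with a median of -0.50. Over all measured probe sets, the fifth that names 10 or more genes, the second H4 one, had DKO above both other arrays. Of all 11 measured shared probe sets, DKO was above WT in 4, below in 5 and level at the floor in 2, and of all 12 that name 1 gene it was above in 9, below in 2 and level in 1. The p53 KO array was above WT in 6 of 6 single-gene representatives and in 6 of 6 shared ones. With every measured probe set counted on its own, 21 of 23 replication-dependent ones were higher on p53 KO than on WT, 1 was lower and 1 was under the floor on both. The p53 KO array was the highest for 16 of these 23 and the DKO array for 7. Some of these outcomes were fixed by the rule for measured. Probe sets of H2bc22, of H2bc4 with H2bc6 and H2bc8, and of 8 H3 genes reached the floor on p53 KO alone. They could thus only count as higher there than on WT and DKO. A probe set of H2ac19, that of H2bc18 and that of 6 H2B genes were under the floor on WT and over it on both knockout arrays. These could only count as higher than WT on p53 KO and on DKO. In the same way the probe set of H3c2 and H3c10, over the floor on DKO alone, could only count as higher on DKO. Of all 33 replication-dependent probe sets, 16 reached the floor on WT, 22 on p53 KO and 19 on DKO, while over the whole array the shares were 47.3%, 48.9% and 53.8%.

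**Figure D2:**
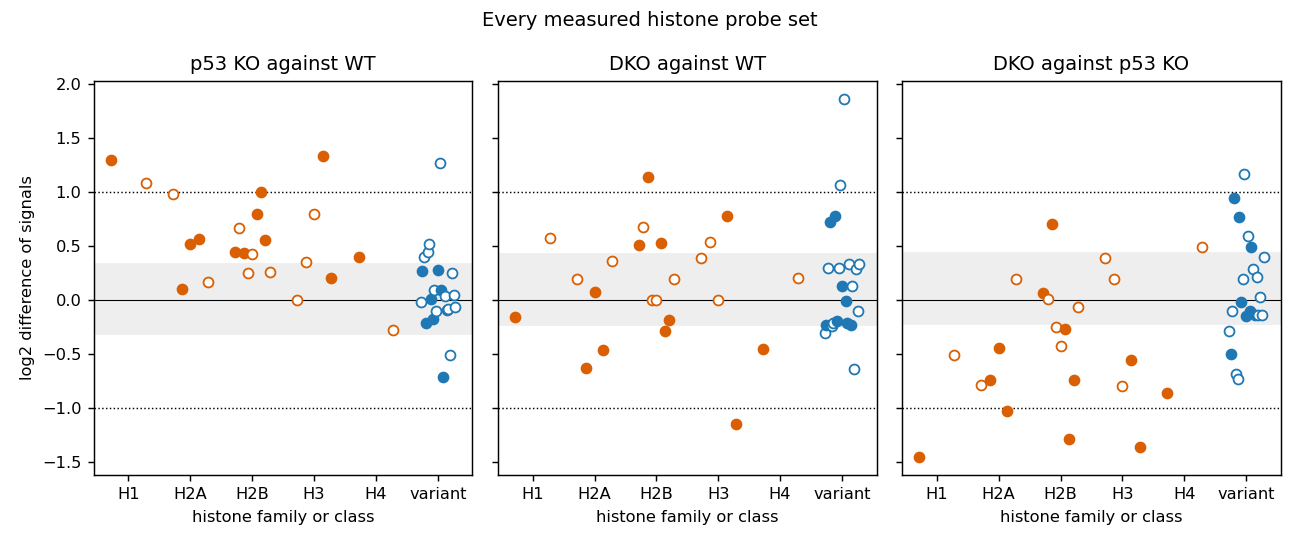
Log2 difference of signal intensity for every measured histone probe set in each comparison, by family for replication-dependent histones (orange) and together for variants (blue). Filled points are the brightest probe set of a gene and open points the others, the grey band spans the middle quartiles of all measured genes, and dotted lines mark 2-fold. Of 23 orange points, 21 are above 0 for p53 KO against WT and 16 are below 0 for DKO against p53 KO. A probe set that reached the floor on p53 KO alone could only fall in both of these counts. Any that was under the floor on WT but over it on p53 KO could only fall in the first.

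Variant histones, each read by its brightest probe set, did not show that shift on the p53 KO array. Of 8 representatives, 4 were higher and 4 lower than on WT, with a median of -0.04 and a range from -0.71 to 0.28. Set against WT, DKO was higher for 3 and lower for 5, with a median of -0.10. Set against p53 KO, it was again higher for 3 and lower for 5, with a median of -0.06. With every measured variant probe set counted, 12 of 21 were higher on p53 KO than on WT and 9 lower, with a median of 0.04. None of the 8 was at least 2-fold different in any of the 3 comparisons, beside 6.51% of all genes higher and 3.19% lower for p53 KO against WT, and like shares in the others (5.22% and 3.10%, 4.10% and 5.93%), so that a count of 0 in 8 genes is near the background. Whether replication-dependent and variant histones differ between genotypes could not be tested with 1 array each.

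Both macroH2A genes were highest on the DKO array. MacroH2A is known for its place in silenced chromatin, such as the inactive X chromosome. Macroh2a1 had signals of 12322 on WT, 12413.5 on p53 KO and 21097 on DKO, so WT and p53 KO were level and DKO was 0.78 above WT and 0.77 above p53 KO. The brightest Macroh2a2 probe set, which also names the pseudogene Macroh2a3, had 416, 358 and 688, with DKO 0.72 above WT and 0.94 above p53 KO. The probe set of Macroh2a2 alone gave 119, 46.0 and 248, which is 1.06 above WT and at least 1.17 above p53 KO. These differences stayed under 2-fold for both brightest probe sets, while the dimmer Macroh2a2 probe set passed it.

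**Figure D3:**
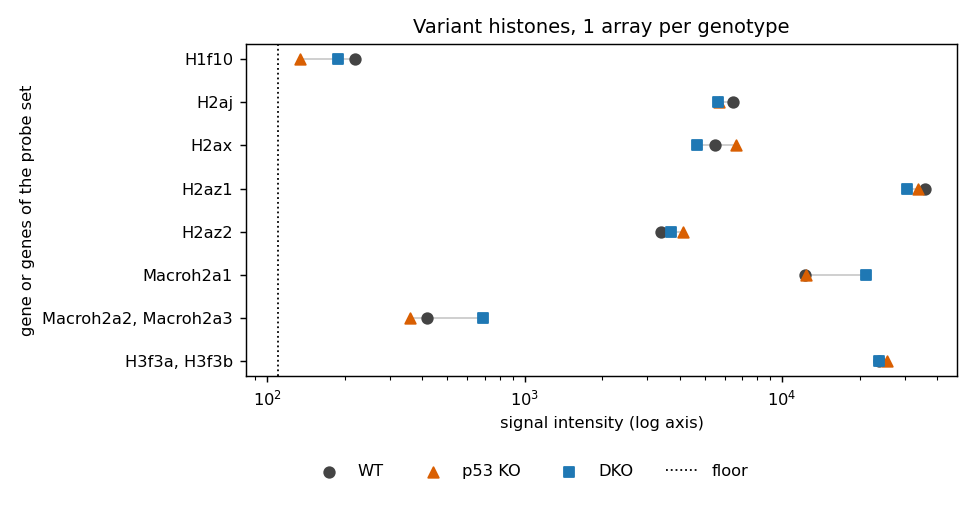
Signal intensity (log axis) of the 8 measured variant histone probe sets on 1 array per genotype, with the floor of 110.4 as a dotted line. The points of H2az1 and of H3f3a with H3f3b lie close together, and the DKO point of Macroh2a1 is at 21097 beside 12322 and 12413.5.

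The H2A.Z genes, whose product marks promoters and regulatory sites, were nearly level. H2az1 had signals of 35903, 33637 and 30626 on WT, p53 KO and DKO, and H2az2 had 3385, 4115 and 3700.2. The largest difference of these brightest probe sets was 0.28, for H2az2 on p53 KO against WT. The other 3 H2az1 probe sets lay between -0.31 and 0.33 for DKO against WT, with 1 below 0 and 2 above. H2ax, the H2A that is phosphorylated at DNA breaks, had 5506, 6648 and 4687, highest on p53 KO and lowest on DKO, at -0.50 between them. H2aj, a replacement H2A, had 6453, 5702 and 5631, slightly lower on both knockout arrays. Its other probe sets did not agree, with 194, 207 and 237, higher on both, and 250, 176 and 160, lower on both. H1f10, a linker variant, had 219, 134 and 189 and the lowest variant difference for p53 KO against WT, at -0.71.

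H3.3 is encoded by H3f3a and H3f3b, which give the same protein. The brightest probe set names both and had signals of 23791, 25425 and 23673.5 on WT, p53 KO and DKO, with no difference larger than 0.10 in size. The other 4 that name both genes lay between 0.04 and 0.52 for p53 KO against WT. They lay between -0.24 and 0.30 for DKO against WT, and between -0.74 and -0.10 for DKO against p53 KO. A dim probe set of H3f3b alone stood apart, with 344, 828 and 1252. It was 1.27 higher on p53 KO and 1.86 higher on DKO than on WT. The second of these is the largest difference of any histone probe set. The probe set of H3f3a alone had 300.5, 358 and 366. Every H3.3 probe set was thus higher on p53 KO than on WT. Which transcript of H3f3b the separate probe set reads was not examined here.

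Germ cell histones were mostly under the floor. Of 4 such genes only H1f6, the testis linker histone, reached the floor, and only on the DKO array, with 92.4 in WT, 79.3 in p53 KO and 146 in DKO. H1f7, H1f8 and H2al2a were under it on every array. The sperm protamine Prm1, on the germ cell marker list, was at 3.48, 2.29 and 1718 on the same arrays, and 2 of the 6 genes on that list reached the floor.

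Other genes of histone supply are given by fixed lists. Of 16 genes that make, process or degrade histone mRNA, 4 were higher and 12 lower on p53 KO than on WT, with a median of -0.16. Of all genes, 46.2% were above 0. None of the 16 was at 2-fold, beside 6.51% of all genes higher and 3.19% lower. Slbp, the stem-loop binding protein, had signals of 3163, 4325 and 2563 on WT, p53 KO and DKO, the order also seen in the representatives that name 10 or more histone genes. Zfp473, a processing factor, was highest on DKO, at 126, 116 and 234. It was the list's only member past 2-fold, for DKO against p53 KO, beside 4.10% of all genes. A count of 1 in 16 genes is near that share. Ncbp2 and Ncbp1, which bind the mRNA cap, had differences of -0.51 and -0.69 for p53 KO against WT.

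Of 29 histone chaperones and transport factors, 8 were higher and 21 lower on p53 KO than on WT, with a median of -0.16. Of all genes, 46.2% were above 0. None of the 29 was at 2-fold, beside 6.51% of all genes higher and 3.19% lower. For DKO against WT the median was -0.18, with Hira past 2-fold upward and Nasp downward, beside 5.22% and 3.10% of all genes. Asf1b, the chaperone of dividing cells that hands over H3 and H4, had signals of 2309.7, 3989 and 1263 in that order of arrays. It was the only member at least 2-fold lower on DKO than on p53 KO, at -1.66, beside 5.93% of all genes. Nasp, which binds spare H3 and linker histones, had 3502, 2369 and 1681. Hira, which deposits H3.3, had 175, 265 and 379.98, highest on DKO. Ipo4, an importin for H3 and H4, had 2197, 1364 and 2802, the only member at least 2-fold higher on DKO than on p53 KO.

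The medians of the cell cycle lists had the signs of the replication-dependent histones' medians by brightest probe set. In the 2 comparisons with DKO, the sign of the histone median did not hold under every probe set rule. For p53 KO against WT the median of 30 S phase genes was 0.09, with 20 above 0 and 10 below. It lay within the middle quartiles of all genes (-0.32 to 0.33). At least 2-fold higher were 3 of these 30, beside 6.51% of all genes, and none was 2-fold lower, beside 3.19%. The median of 27 G2 and mitosis genes was 0.51, with 26 of 27 above 0, beside 46.2% of all genes. For DKO against p53 KO the medians were -0.52 and -0.93, with 6 of 30 and 11 of 27 at least 2-fold lower, beside 5.93% of all genes, and none higher, beside 4.10%. For DKO against WT they were -0.17 and -0.43, the first within the middle quartiles of all genes (-0.23 to 0.43). E2f2, an E2F factor, had the largest S phase difference, with signals of 1269.9, 5809 and 624. Ccne1, which encodes cyclin E1, and the nucleotide supply genes Rrm2 and Tk1 followed at -1.63, -1.39 and -1.10 for DKO against p53 KO. Ube2c, Kif11, Ccnb2 and Prc1, which act in mitosis, led the mitosis list at -1.80, -1.53, -1.40 and -1.39 in that comparison. The part of the cell cycle in the histone values was not tested.

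**Figure D4:**
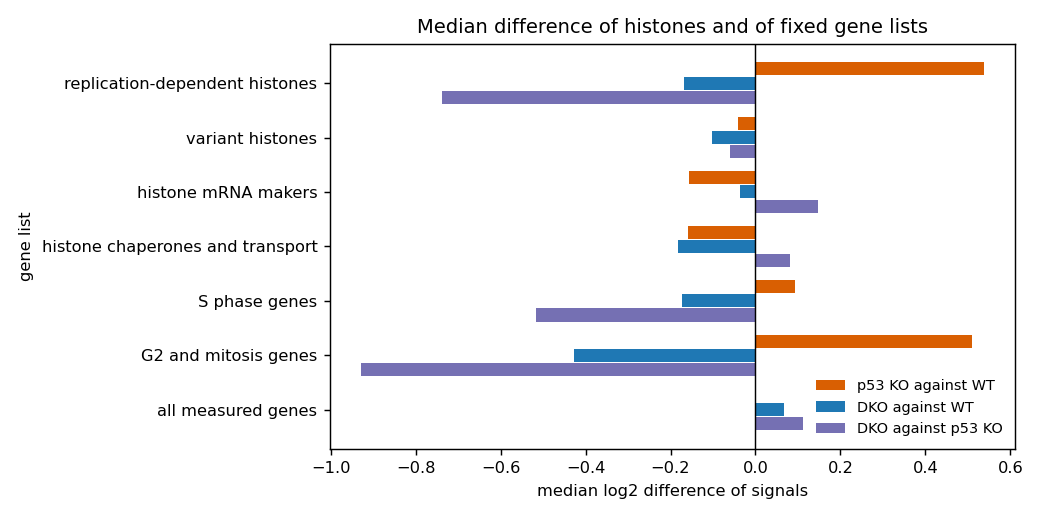
Median log2 difference of the 12 replication-dependent and 8 variant histone representatives, of 4 fixed gene lists and of all 12597 measured genes, for the 3 comparisons between arrays (bars from 0). Replication-dependent histones lie at 0.54 in the p53 KO to WT comparison and at -0.74 in the DKO to p53 KO comparison. In the same comparisons S phase genes lie at 0.09 and -0.52, and G2 and mitosis genes at 0.51 and -0.93.

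Cell type markers also differed between arrays. Of the LSK markers 7 were named and over the floor on each array, with summed signals of 13763, 11629 and 23093 in WT, p53 KO and DKO, and Ly6a, which encodes Sca-1, was not analysed here. Erythroid markers summed to 48302.5, 57942.5 and 10953, monocyte markers to 8433, 29936 and 14546, granulocyte markers to 36356, 80270.3 and 38910.0, megakaryocyte markers to 3475, 10829 and 6199, and B cell markers to 533, 2188 and 1007. All 4 monocyte, 4 of 5 granulocyte and 3 of 3 B cell markers were at least 2-fold higher on p53 KO than on WT, beside 6.51% of all genes. So were 2 of 4 megakaryocyte, 1 of 6 measured erythroid and 0 of 7 LSK markers. At least 2-fold lower on DKO than on p53 KO were 6 of 6 measured erythroid markers, beside 5.93% of all genes. The T cell genes Cd3e and Cd3g were under the floor on every array. The erythroid, monocyte, granulocyte, megakaryocyte and B cell sums were each highest on p53 KO, although 4 of 6 erythroid markers were lower there than on WT. Elane, Itga2b and Gp1bb were highest on DKO, and Mpo was level on p53 KO and DKO. The part of these cell types in the histone values was not tested. In bulk RNA, fewer cells of a type and less RNA per cell cannot be told apart. The Elf4 signal, 57.4 on WT, 182 on p53 KO and 151 on DKO by 1 probe set and 74.3, 173 and 129 by the other, does not check the DKO label, and the level of p53 was not analysed here, so directions rest on the labels alone.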

How the data were processed

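RNA of 3 LSK samples was measured on 1 array each. Per the submitters' processing notes, the authors used GCOS and MAS5, with no version given. What they deposited is a linear signal intensity per probe set, with a 2% trimmed mean near 500.0 on each array. No genome build is named. The number of arrays, 1 per genotype, limits the precision of every difference. All value columns were matched to an array.

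Symbols came from the platform annotation, with current and older symbols looked up by Entrez ID in the RefSeq table (GRCm38.p6), where 67 of 85 protein-coding histone genes were named by a probe set. 7 probe sets that also list retrogene or predicted copies of H2az1, H3f3a or H3f3b were kept. Signals under the median of all signals (110.4) were set to it. Differences are log2, the first array named minus the second, and "at least" marks a difference from an array under the floor. Each of 18194 genes was represented for the background by its brightest single-gene probe set, and 12597 were measured. No test or p-value was possible. The naming rule took variants, members past 2-fold, the extremes of each family and the 4 genes with the largest difference of each supply or cell cycle list; the other measured histones are named to account for every member. Members and lists were chosen with earlier results of these data known. Alternatives were rescaling, quantile and cyclic loess (3 iterations) normalization with limma 3.58.1, floors at the 25th and 75th percentiles, a pseudocount of 32, other probe set rules, and 1.5-fold or 3-fold as the threshold. The calculation in Python 3.11.15 was tested on simulated data.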

Additional observations from a re-analysis of the deposited data

How the results depend on the processing

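With 1 array per genotype, an alternative was set against the spread between probe sets of 1 gene (log2 0.30 between p53 KO and WT, 0.35 between DKO and WT, 0.36 between DKO and p53 KO), divided for medians by the square root of the number of members. Probe sets near the floor, as many replication-dependent ones are, are the least precise. Counting every probe set was chosen after seeing the data.

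The median of replication-dependent histones for p53 KO against WT stayed above 0 under every alternative, from 0.45 to 0.56. Under quantile normalization, cyclic loess, the 25th percentile floor, the pseudocount, _at alone and every probe set counted, 1 member was below 0. The median was 0.45 both with probe sets ending in _at alone and with every probe set counted. The count at least 2-fold higher, 3, was 1 with the floor at the 75th percentile, 1 with the mean over all probe sets and 0 at 3-fold.

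For DKO against WT the median of -0.17 turned positive with other probe set rules: 0.025 with the mean over all probe sets, 0.30 with probe sets of 1 gene symbol, 0.36 with those ending in _at alone and 0.19 with every probe set counted. The 1 higher member became 0 under quantile normalization, cyclic loess, the 75th percentile floor and 3-fold, and 2 at 1.5-fold. The 1 lower member became 0 under the 75th percentile floor, the pseudocount, the mean over probe sets, 1 gene symbol, _at alone and 3-fold, and 2 at 1.5-fold.

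For DKO against p53 KO the median of -0.74 was -0.84 under cyclic loess, -0.57 with the pseudocount, -0.30 with the mean over probe sets, -0.36 with 1 gene symbol and -0.45 with every probe set counted. It turned to 0.012 with _at alone. The 4 lower members became 2 under the 75th percentile floor, the mean over probe sets and _at alone, 1 with 1 gene symbol, 7 at 1.5-fold and 0 at 3-fold. The 0 higher members became 1 with the pseudocount and at 1.5-fold.

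For variants, the counts of 0 at least 2-fold higher became 1 for p53 KO against WT with 1 gene symbol and with every probe set counted. For DKO against WT they became 2 with 1 gene symbol, at 1.5-fold and with every probe set counted. For DKO against p53 KO they became 1 with 1 gene symbol and with every probe set counted and 2 at 1.5-fold. The count lower on p53 KO against WT became 1 at 1.5-fold. Variant medians for DKO against WT were 0.11 with the mean over probe sets and 0.13 with every probe set counted, and the median for DKO against p53 KO was 0.24 with 1 gene symbol.

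Of the values of single representatives under alternatives, 460 moved by less than the spread between probe sets and the rest by more. Of all 495, 28 changed sign: 22 of 156 with another probe set rule and 6 of 339 with another scaling, floor or pseudocount. Split by comparison, 1 sign change was between p53 KO and WT, 14 were between DKO and WT and 13 between DKO and p53 KO. With _at alone the shared H4 member went to -0.28, 0.21 and 0.49 in that order of comparisons. The 6 sign changes under scaling belong to H2aj, H2aw and the probe set of H3f3a and H3f3b, whose main differences there were -0.02, 0.07 and -0.01. The sign changes of differences past 2-fold, 4 in number, belong to the H3 probe set of 12 genes, which on DKO was at 0.54 from WT and at 0.19 from p53 KO, both with 1 gene symbol and with _at alone, where H3c7's own probe set is read. Causes other than the probe set read were not tested.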
